A study of Arabidopsis thaliana with 18 samples.

Results

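Seedlings that overexpress LBD37 were compared with wild-type seedlings after both had been kept without nitrogen. The comparison used the 3 overexpresser arrays and the 3 wild-type arrays that carry these labels, 6 of the 18 arrays in the series, and every probe set that is not a control, 22746 in all. A probe set is a group of short probes on an Affymetrix array that reads 1 transcript or a few similar ones. All plants were whole seedlings of the Arabidopsis thaliana accession Col-0, 9 days old, grown at 20 degrees C with 24 hours of light a day. Both groups had 4 mM KNO3 for the first 7 days and no added nitrogen for the last 2. For comparison, levels are also given for the LBD38 overexpresser under the same depletion, and for the lbd37 insertion mutant and its wild type, both given 4 mM KNO3 for all 9 days (3 arrays each). The labels do not name the promoter that drives the overexpression or the number of lines, and for the biological replicates they do not say which step was repeated. The p-values therefore reflect only how much the arrayed samples varied, and having 3 arrays in a group limits the precision. That spread was estimated over all 18 arrays in 6 groups, so it also draws on arrays outside the comparison.

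LBD37 belongs to the LATERAL ORGAN BOUNDARIES DOMAIN family of plant transcription factors. It is known as a nitrate-induced repressor of anthocyanin synthesis and of many genes that answer the nitrogen status of the plant. Seedlings that run out of nitrogen normally raise transporters that scavenge nitrate, make anthocyanin pigments, store carbon as starch, and break down their own cell contents by autophagy. The question is which of these transcripts, and which others, stood at a different level in depleted plants that carried extra LBD37.

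Values are log2 signals, so a difference of 1 is a 2-fold change. A probe set passed the test when its p in limma, a linear model fitted to all probe sets, was under 0.05 after Benjamini-Hochberg adjustment over the 22746 probe sets. "Rose", "fell", "higher" and "lower" are used in this sense, for the overexpresser relative to wild type. Of the 22746 probe sets 4203 (18.5%) passed: 1639 (7.21%) were higher and 2564 (11.3%) lower. Changes of at least 2-fold were made up of 61 rises (0.268%) and 324 falls (1.42%), and those of at least 4-fold of 4 rises and 43 falls. With the spread taken only from the 6 arrays of the 2 groups, 2067 probe sets passed, 693 higher and 1374 lower. The overexpresser arrays all lay on 1 side of the wild-type arrays at 31.5% of probe sets, which is called no overlap here. All probe sets together had a median log2 change of 0.01. The gene lists below and their members were chosen with earlier results of these data known. Their shares beside those of all probe sets are therefore descriptions and not tests.

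Replicate 3 of the overexpresser had a narrower spread of values than the other 17 arrays, with an interquartile range of 2.89 against 3.06 to 3.28. Its median was 6.87, against 6.96 to 7.06 on the others. Without it, 3875 probe sets (17%) passed, 1973 higher (8.67%) and 1902 lower (8.36%), so that falls no longer outnumbered rises. Of these, 89 (0.391%) were at least 2-fold higher and 309 (1.36%) at least 2-fold lower. Calls shared by the fits with and without it numbered 1224 rises (74.7% of all rises) and 1806 falls (70.4% of all falls), and none of the calls made in both fits changed direction. All 61 of the 2-fold rises and 321 of the 324 falls were also called without it, in a fit that shares all the other arrays. The count of 2-fold rises nonetheless went from 61 to 89, and that of 2-fold falls from 324 to 309. The split between rises and falls also depended on scaling. Repeated quantile normalization gave 2116 rises and 2130 falls, and centring each array on its median gave 2241 and 2195. Centring together with scaling to a common interquartile range gave 2527 rises and 1812 falls. Without wild-type replicate 1 the calls numbered 2742, and without wild-type replicate 2 they numbered 2736.

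**Figure D1:**
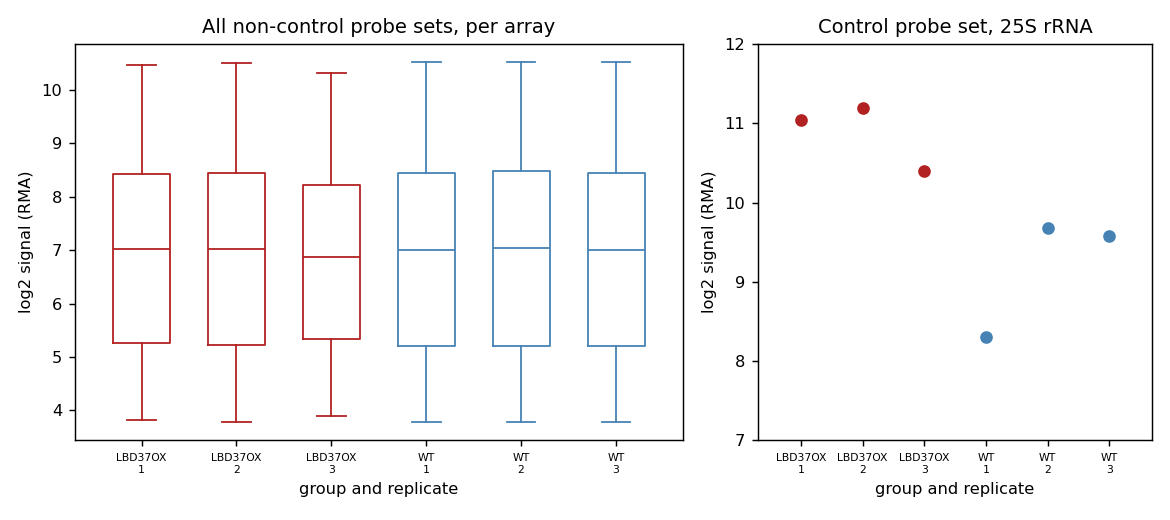
Left, log2 signal of all non-control probe sets on each of the 6 arrays (box, quartiles and median; whiskers, 5th and 95th percentile), with the LBD37 overexpresser in red and wild type in blue; replicate 3 of the overexpresser has the narrowest box, 2.89 log2 units high. Right, log2 signal of the 25S ribosomal RNA control on the same arrays, where the 3 overexpresser arrays (10.40 to 11.19) lie above the 3 wild-type arrays (8.30 to 9.68).

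**Figure D2:**
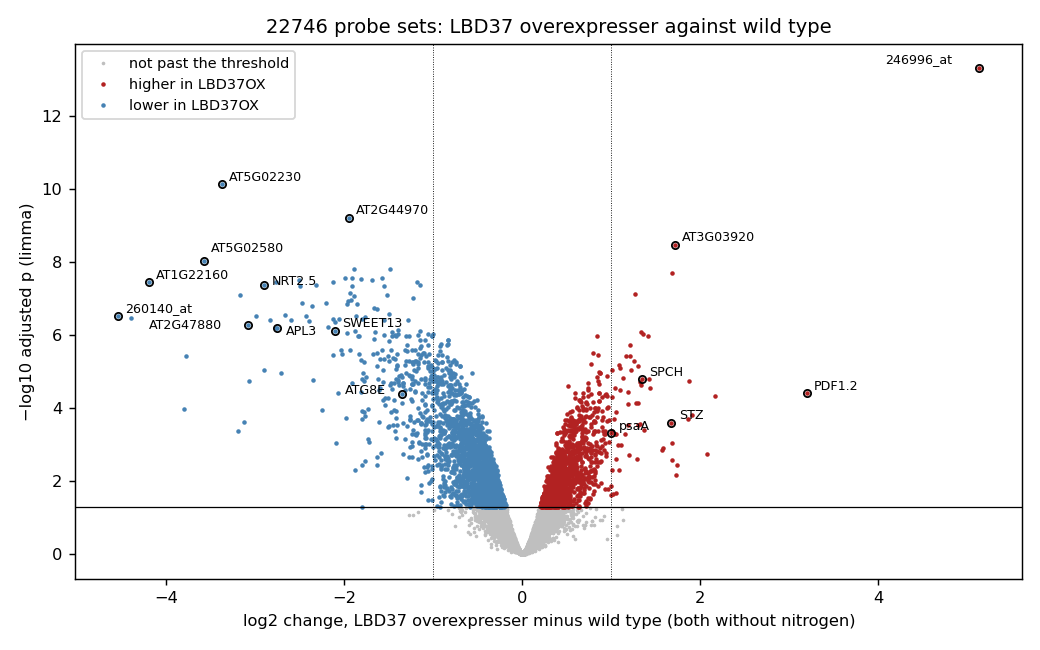
Log2 change (x axis, overexpresser minus wild type) against −log10 of the limma adjusted p (y axis) for all 22746 probe sets, with those past the threshold in red (1639 higher) and blue (2564 lower). Dotted lines mark a 2-fold change and the solid line the threshold, and the plot names some probe sets. The 43 falls of at least 4-fold outnumber the 4 such rises, of which 246996_at is the farthest right.

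No probe set was listed with LBD37 itself, nor with LBD38 or LBD39, in the annotation used, which lists no gene for 8730 probe sets. The targeted gene could therefore not be found by name as a check of the labels. Whether an unnamed probe set reads it was not tested. Among the other genes of the family only LBD29 and LBD16 were listed. LBD29 stood at 5.74, 5.52 and 5.93 in the overexpresser arrays and 5.67, 5.74 and 5.54 in the wild-type arrays. Its change of 0.08 did not pass (adjusted p = 0.641), and the groups overlapped. LBD16 overlapped too, with a change of 0.15 (adjusted p = 0.329).

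The most changed probe set of all carries no gene name in the annotation used. This probe set, 246996_at, read 12.90, 13.15 and 13.36 in the overexpresser and 8.06, 8.12 and 7.83 in wild type, a 35.1-fold rise (log2 change 5.13 ± 0.14, SE; limma adjusted p = 4.88e-14). The 3 overexpresser arrays lay far above every wild-type array. In the LBD38 overexpresser the same probe set averaged 7.08 ± 0.26 (SD, n = 3), so that the lines differed by 6.06 in a direct test (adjusted p = 1.32e-15). A second unnamed probe set with a large rise, 254120_at, read 10.29, 9.68 and 8.30 against 7.23, 7.28 and 7.55 (log2 change 2.07, adjusted p = 0.00181), with replicate 3 lowest among the overexpresser arrays. The largest falls among unnamed probe sets were those of 260140_at (−4.54) and 259953_at (−4.39), at adjusted p = 2.88e-07 and 3.44e-07, with no overlap between the groups.

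NRT2.5 and APL3 were single members of their lists with large falls. NRT2.5, a high-affinity nitrate transporter of nitrogen-starved plants, read 6.95, 6.77 and 7.59 in the overexpresser, against 9.99, 9.92 and 10.10 in wild type. All 3 overexpresser arrays lay below all wild-type arrays, and replicate 3 lay closest to wild type. The change was −2.90 ± 0.21 (log2, SE), a 7.47-fold fall (limma adjusted p = 4.11e-08), and −3.15 without replicate 3. Nitrogen-replete wild type averaged 6.11 ± 0.11 (SD, n = 3) for this gene. Of the other measured nitrate transporters, the genes at AT2G26690 and AT3G21670, of the NPF family, stood at −0.33 and 0.49 and did not pass with all arrays; AT3G21670 passed without replicate 3, at 0.80 (adjusted p = 0.0143). Only 3 of the 22 listed nitrate transport genes were measured, so this list describes few of its members.

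APL3, a large subunit of ADP-glucose pyrophosphorylase, which commits sugar to starch, read 6.65, 6.40 and 5.92 in the overexpresser and 9.10, 9.12 and 9.00 in wild type. The groups were well apart, with the wild-type arrays close together. APL3 was 6.73-fold lower (log2 change −2.75 ± 0.25, limma adjusted p = 6.23e-07), and replete wild type averaged 6.0 ± 0.21. It was the only 1 of 5 measured starch and sugar genes that passed. Its paralogue APL4 stood at 0.15, the starch branching enzyme gene SBE2.2 at −0.08, the glucanotransferase gene DPE1 at 0.28 and the starch kinase gene PWD at 0.31, and without replicate 3 PWD and DPE1 were higher (0.48 and 0.35). cwINV6, a fructan-cleaving enzyme of the cell wall invertase group, read 6.90, 6.43 and 6.87 in the overexpresser against 9.14, 9.12 and 9.25 in wild type. No array of one group reached the other, and the gene was 5.41-fold lower (adjusted p = 3e-07), with replete wild type at 6.59 ± 0.01.

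AT1G22160 had the largest fall of a probe set with 1 listed gene. It read 5.33, 5.40 and 4.92 in the overexpresser and 9.57, 9.60 and 9.07 in wild type, an 18.3-fold fall (adjusted p = 3.53e-08). These overexpresser values lie around the lower quartile of the arrays (5.19 to 5.34), where fold changes are less certain. AT1G78020, which like AT1G22160 and AT4G17670 encodes a small FCS-like zinc finger protein, read 6.85, 6.62 and 5.63 against 9.25, 8.97 and 8.87 (6.34-fold lower). AT4G17670 read 7.25, 7.55 and 7.43 against 9.93, 9.88 and 9.59 (5.25-fold lower). In these 3 genes the lowest wild-type array stood above the highest overexpresser array by a wide margin. Replete wild type averaged 6.10 for AT1G22160, 7.40 for AT4G17670 and 8.62 for AT1G78020, the last close to the depleted level of 9.03.

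AT5G02230 read 6.26, 6.15 and 6.09 against 9.52, 9.47 and 9.64, a 10.4-fold fall (adjusted p = 7.36e-11) with the smallest standard error (0.14) of the 15 largest falls. AT5G38910, a germin-like protein gene, was 9.16-fold lower, and AT5G02580 11.9-fold lower. EULS3, a carbohydrate-binding lectin, read 6.64, 6.44 and 6.67 against 9.20, 9.05 and 9.03 (5.68-fold lower, adjusted p = 3.13e-08). AT1G64360, AT1G76960 and the leucine-rich repeat receptor kinase gene AT5G59670 were 7.15-, 6.78- and 6.06-fold lower. The overexpresser mean of AT5G02580 (5.12) and of AT5G59670 (4.15) lay below the lower quartile of the arrays (5.19 to 5.34), where fold changes are less certain. The 15 largest falls with 1 listed gene ranged from 5.25- to 18.3-fold, and all were called without replicate 3.

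CC-type glutaredoxins, small redox proteins of which some are known to carry a signal of nitrogen demand between shoot and root, split into a group that fell and a group that did not. Of 17 measured members 7 were lower and 1 higher, beside 11.3% and 7.21% of all probe sets, with a median of −0.26 beside 0.01; the counts without replicate 3 were 7 and 2. AT2G47880 read 7.69, 7.24 and 7.57 in the overexpresser against 10.63, 10.61 and 10.49 in wild type. AT3G62960 read 7.84, 7.78 and 7.62 against 11.00, 10.60 and 10.60. Both genes were clearly separated between the groups, 8.46- and 7.94-fold lower (limma adjusted p = 5.35e-07 and 3e-07), and in replete wild type they averaged 7.82 and 8.22.

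AT4G33040 was 3.11-fold lower, AT5G11930 1.95-fold and GRX480, which interacts with TGA factors in salicylate and jasmonate signalling, 1.93-fold. AT5G18600 and AT2G30540 fell by 0.67 and 0.66 on the log2 scale. ROXY1, which acts in flower development, was the exception: it read 6.19, 6.22 and 6.66 against 5.95, 5.85 and 5.77 and was 1.41-fold higher (adjusted p = 0.0027). Another group of this family, AT4G15660, AT4G15680, AT4G15690 and AT4G15700, did not pass (−0.26, 0.17, 0.47 and 0.13). In depleted wild type these genes averaged 4.23, 5.81, 3.96 and 3.40, and all but AT4G15680 lay below the lower quartile of the arrays. AT1G06830, the most abundant of those that did not pass, stood at 0.25 and passed without replicate 3 at 0.37 (adjusted p = 0.0453).

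The 3 measured regulators of the nitrogen response fell. The list has 18 genes, and the measured ones are GARP-type repressors of the nitrate and phosphate starvation responses. AT3G25790 read 4.84, 4.67 and 4.42 in the overexpresser and 5.80, 5.44 and 5.70 in wild type. AT1G68670 read 5.76, 5.69 and 5.72 against 6.69, 6.65 and 6.30, and AT1G25550 read 6.73, 6.82 and 6.51 against 7.35, 7.42 and 7.59. All 3 had no overlap between the groups, fell by 1.00, 0.83 and 0.76 on the log2 scale, and passed with and without replicate 3 (limma adjusted p = 1.75e-05, 0.000263 and 0.000267 with all arrays). Of all probe sets, 11.3% were lower and 31.5% had no overlap, and 3 genes describe few of the 18 listed. The overexpresser arrays of AT3G25790 lay below the lower quartile of the arrays (5.19 to 5.34), where fold changes are less certain. Replete wild type averaged 4.78, 7.79 and 8.75 for these genes, so that the overexpresser lay near the replete level for AT3G25790 and below both wild-type groups for the others. No gene of the lists for nitrate reduction and assimilation, ammonium and urea transport, flavonoid regulators, phosphate, hypoxia or salicylate response had a probe set with exactly 1 listed gene, and these lists were not analysed here.

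**Figure D3:**
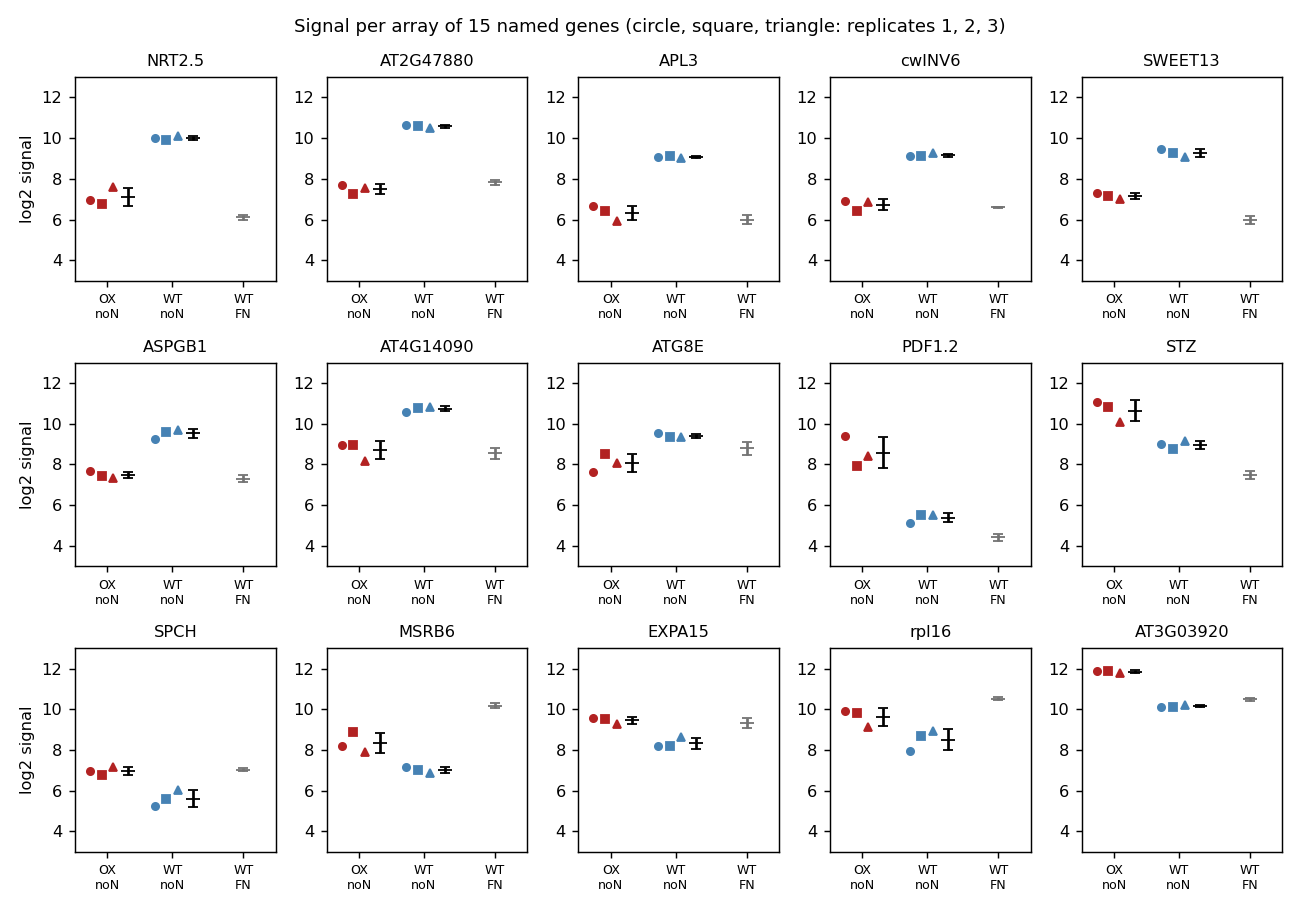
Log2 signal (y axis) of 15 genes in the LBD37 overexpresser without nitrogen (OX noN, red), wild type without nitrogen (WT noN, blue) and, in grey, replete wild type (WT FN, mean and SD of 3 arrays). Circle, square and triangle are replicates 1, 2 and 3, and bars beside them show mean and SD; for all 15 genes the 3 red points lie on one side of the 3 blue points, as for NRT2.5, with 6.77 to 7.59 against 9.92 to 10.10.

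Late anthocyanin genes were lower. All 5 measured members of the 12 listed fell, with a median of −1.24, beside 11.3% lower among all probe sets. Without replicate 3, 4 fell and the median was −1.05. The count was also 4 without overexpresser replicate 1, without any 1 wild-type array, after repeated quantile normalization and after centring with scaling. The glycosyltransferase gene AT4G14090 read 8.98, 8.96 and 8.18 in the overexpresser and 10.59, 10.77 and 10.83 in wild type. DFR, dihydroflavonol reductase, which opens the branch to anthocyanins, read 11.18, 11.07 and 10.53 against 12.26, 12.09 and 12.16. The groups did not overlap in either gene, and replicate 3 was the lowest overexpresser array in both.

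The acyltransferase gene AT5MAT and the glycosyltransferase gene UF3GT fell by 1.39 and 1.09 on the log2 scale. UGT78D2, which also glycosylates flavonols, fell by 0.39 with all arrays (adjusted p = 0.0442) and stood at −0.22 without replicate 3 (adjusted p = 0.22). In replete wild type the members averaged between 7.02 (AT5MAT) and 9.97 (DFR). The early flavonoid list was measured at only 3 of 11 genes, so it describes few of its members. The flavonol glycosyltransferase genes UGT78D1 and UGT78D3 rose by 0.46 and 0.39, and CHIL, which assists chalcone synthase, stood at 0.19. Without replicate 3 all 3 rose. Leaving out wild-type replicate 1 left 1 call, and leaving out any of the other 4 arrays left none.

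Autophagy genes encode the machinery that delivers cell contents to the vacuole, and 9 of the 10 measured here belong to the ATG8 family of ubiquitin-like proteins that coat the autophagosome membrane. Of the 10, 7 fell and none rose, with a median of −0.42, while 11.3% of all probe sets were lower. ATG8E read 7.61, 8.49 and 8.06 in the overexpresser and 9.52, 9.36 and 9.33 in wild type. It had no overlap and the largest fall of the list, 2.54-fold (limma adjusted p = 4.15e-05), and its overexpresser mean of 8.06 was also below replete wild type (8.80 ± 0.32, SD, n = 3). The other falls were smaller than 1.5-fold: APG8A stood at −0.53, ATG8H at −0.47, ATG8G at −0.46, ATG8B at −0.43, ATG8D at −0.36 and the ATG1-type kinase gene AT3G61960 at −0.42. ATG8C (−0.32), APG8H (−0.20) and ATG8F (−0.17) did not pass and overlapped between the groups. Without replicate 3, 5 fell, since ATG8H and ATG8D no longer passed (adjusted p = 0.0811 and 0.0667). Leaving out replicate 1 or replicate 2 of wild type also gave 5, and with arrays centred and scaled to 1 interquartile range it was 2. In the overexpresser all of these genes but ATG8E averaged above the level of replete wild type. APG8A averaged 10.42 in the overexpresser, against 10.95 in depleted and 9.10 in replete wild type.

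Of 6 measured genes of senescence and remobilization, 2 fell, beside 11.3% of all probe sets, and the count is too small to set the list apart. PPDK, pyruvate orthophosphate dikinase, which helps to move nitrogen out of ageing leaves, read 9.85, 9.71 and 9.81 in the overexpresser and 10.72, 10.77 and 10.59 in wild type (1.87-fold lower, limma adjusted p = 9e-06). SAG101 read 7.14, 7.44 and 7.64 against 8.07, 8.15 and 8.07 (1.61-fold lower, adjusted p = 0.00361). Neither gene overlapped between the groups. SAG29, the transcription factor genes WRKY53 and WRKY6 and the gene at AT4G33150 did not pass, at 0.27, −0.36, 0.02 and −0.27.

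Several further genes of amino acid, sugar and sulfur metabolism were picked out after their values were seen, because they lay next to the named genes in size. ASPGB1, an asparaginase that frees ammonium from asparagine, read 7.66, 7.45 and 7.36 in the overexpresser, against 9.27, 9.61 and 9.69 in wild type. SWEET13, a sucrose transporter, read 7.33, 7.14 and 7.01 against 9.46, 9.27 and 9.08. STR18, a sulfurtransferase, read 7.18, 6.82 and 6.71 against 9.09, 9.04 and 8.97. All 3 genes were lower on every overexpresser array than on any wild-type array, at 4.09-, 4.32- and 4.38-fold (limma adjusted p = 2.56e-06, 7.56e-07 and 3.43e-08). AILP1, a small protein gene named for its response to aluminium, was 4.55-fold lower.

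Large rises were fewer than large falls, and among the 15 largest with 1 listed gene they ranged from 2.46- to 9.17-fold. PDF1.2, a plant defensin gene used as a marker of jasmonate and ethylene signalling, read 9.41, 7.94 and 8.41 in the overexpresser and 5.13, 5.53 and 5.50 in wild type. The overexpresser arrays were far above wild type but spread among themselves, with replicate 1 the highest. The gene was 9.17-fold higher (log2 change 3.20 ± 0.42, SE; limma adjusted p = 3.87e-05). PDF1.2b, a near copy whose probe set may cross-hybridize with it, was 3.3-fold higher (adjusted p = 0.00647). The other 3 measured genes of the jasmonate and defensin list did not pass. THI2.1, a thionin, stood at 0.13, the jasmonate methyltransferase gene JMT at 0.28 and LCR67 at 0.11, with JMT higher without replicate 3 (0.39, adjusted p = 0.00993).

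STZ, a zinc finger repressor in stress and wounding responses, read 11.05, 10.83 and 10.06 in the overexpresser and 9.02, 8.76 and 9.15 in wild type. CML38, a calmodulin-like calcium sensor, read 8.10, 7.99 and 7.29 against 6.37, 5.90 and 6.41. Neither gene overlapped between the groups, and in both replicate 3 was closest to wild type. They were 3.19- and 2.97-fold higher (limma adjusted p = 0.000246 and 0.00141), and their log2 changes grew to 1.97 and 1.82 without replicate 3. These were 2 of the 4 measured genes of the rapid stress and calcium list. The close relatives CML37 (−0.47, adjusted p = 0.0666) and AT1G76640 (0.07) did not pass. In replete wild type STZ read 7.65, 7.46 and 7.26, below depleted wild type. Of the 4 measured genes of the list, 3 were higher in depleted than in replete wild type.

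A run of 3 loci with neighbouring numbers also stood among the 15 largest rises. AT4G27654 read 7.20, 7.18 and 6.08 in the overexpresser and 4.67, 4.57 and 4.70 in wild type, where it lay below the lower quartile of the arrays. AT4G27652 read 9.84, 9.85 and 8.63 against 7.83, 7.48 and 7.43. AT4G27657 read 7.27, 7.55 and 6.05 against 5.68, 5.39 and 4.76. All 3 were higher on each overexpresser array than on any wild-type array, at 4.5-, 3.63- and 3.2-fold, and in all 3 replicate 3 was clearly the lowest overexpresser array. AT1G58420 showed the same order of arrays and was 2.58-fold higher.

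Another set of rises was of genes that stood lower in depleted than in replete wild type. Both comparisons share the depleted wild-type arrays, so the values only stand side by side. MSRB6, a methionine sulfoxide reductase that repairs oxidized proteins, read 8.20, 8.87 and 7.92 in the overexpresser and 7.17, 7.01 and 6.85 in depleted wild type, with replete wild type at 10.18 ± 0.11 (SD, n = 3). AT2G19970, of the PR1-like family, read 7.89, 7.92 and 6.86 against 5.75, 5.88 and 5.43, with replete wild type at 9.90. The overexpresser thus lay between the wild-type levels for MSRB6 and AT2G19970, with no overlap with depleted wild type (2.49- and 3.65-fold higher, limma adjusted p = 0.000266 and 1.75e-05). GIS, a zinc finger factor of trichome formation, averaged 7.29 in the overexpresser and 5.96 in depleted wild type, with 7.00 in replete wild type. AT3G45160 likewise averaged 8.71 and 7.42, with 8.61 in replete wild type, so that for both genes the overexpresser mean was slightly above the replete one. AT4G21870 averaged 9.44 in the overexpresser and 8.11 in depleted wild type, with 10.02 in replete wild type.

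SPCH, the bHLH factor that starts the stomatal lineage in young leaves, read 6.95, 6.77 and 7.17 in the overexpresser and 5.23, 5.58 and 6.03 in wild type, without overlap. It was 2.55-fold higher (limma adjusted p = 1.61e-05) and was the only one of the 15 largest rises with a smaller change without replicate 3 (1.25). The factors that act after it in the lineage stood closer to wild type. FMA was 1.17-fold higher (adjusted p = 0.0485), while MUTE (0.21) and the leaf polarity gene YAB3 (0.26) did not pass. Over the 4 measured leaf and stomatal markers the mean level was 6.97, 6.84 and 6.91 in the overexpresser and 6.23, 6.39 and 6.56 in wild type, and 1 or 2 were higher in each fit that left out 1 array.

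Genes of the cell cycle were represented by the 3 Aurora kinases of dividing cells. AUR1 and AUR2 rose by 0.43 and 0.45 on the log2 scale (limma adjusted p = 0.00613 and 0.0338), and AUR3 stood at 0.24 with overlapping arrays. Without replicate 3 all 3 passed, and without any other single array only 1 did. Root hair markers, in the opposite direction, had a mean level of 8.34, 8.34 and 7.92 in the overexpresser and 9.03, 8.68 and 8.25 in wild type. The root hair expansin genes EXPA7 and EXPA18 fell by 0.62 and 0.48, the peroxidase gene AT4G26010 stood at −0.27, and without wild-type replicate 1 none of the 3 passed. The root marker PYK10 read 11.31, 11.28 and 11.37 against 11.27, 11.30 and 11.41. These are whole seedlings, so fewer cells of a type and less RNA per cell cannot be told apart, and whether the balance of tissues has a part in the other results was not tested.

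**Figure D4:**
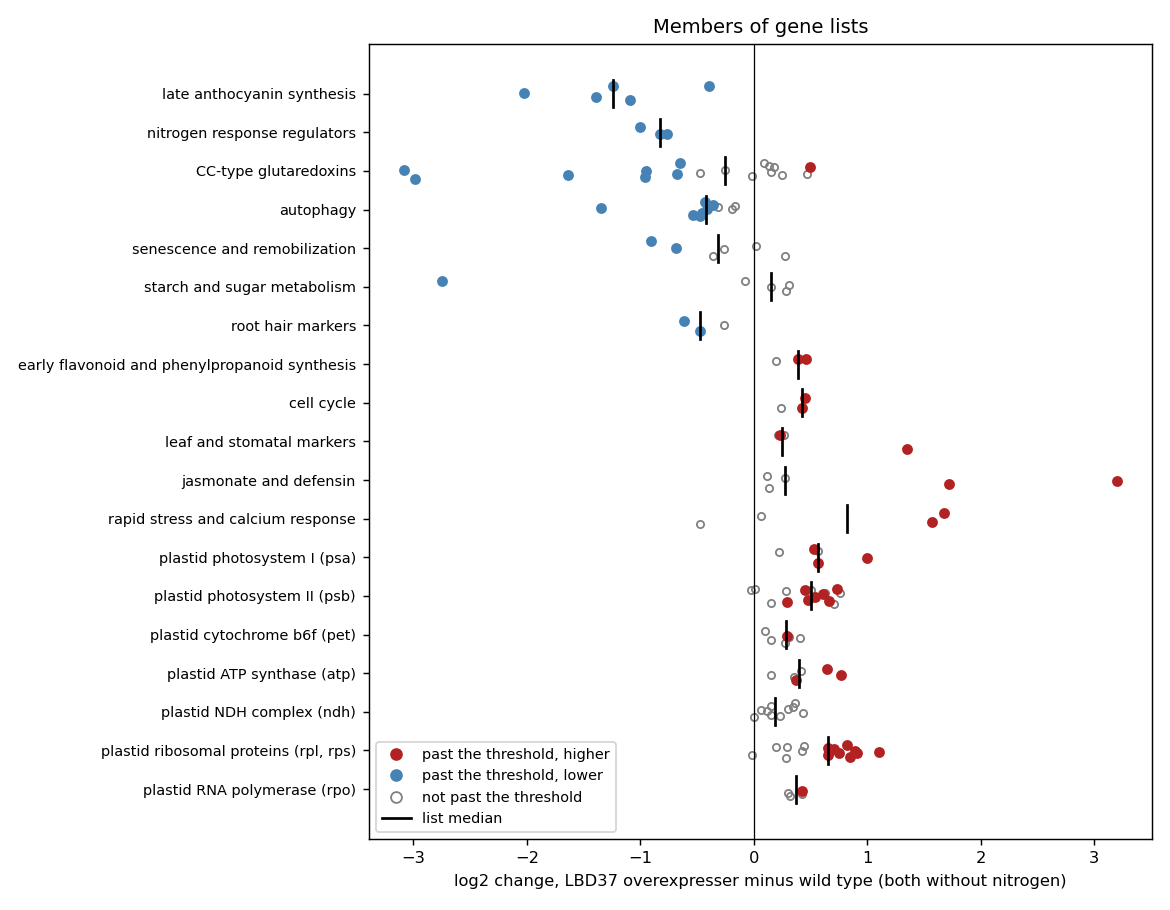
Log2 change (x axis, LBD37 overexpresser minus wild type without nitrogen) of every measured member (points, filled red or blue where the test was passed as higher or lower) of the gene lists named on the y axis, with the median of each list as a black bar. Late anthocyanin genes (median −1.24) lie left of 0 and plastid ribosomal protein genes (median 0.65) mostly right of it.

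Genes encoded in the plastid genome, which specify part of the photosynthetic complexes and of the plastid's own ribosome and RNA polymerase, moved mostly in one direction. Of 69 measured, 30 (43.5%) were higher and none lower, beside 7.21% higher among all probe sets. Their median was 0.42, and 66 of the 69 changes were positive. The groups did not overlap at 26 of the 69, a share near the 31.5% of all probe sets. The mean level over the 69 genes was 9.17, 9.31 and 9.03 in the overexpresser and 8.54, 8.71 and 8.97 in wild type, so that wild-type replicate 3 lay close to the overexpresser. Between the wild-type groups, 63 of the 69 were lower in depleted than in replete seedlings, with a median of −0.94, a comparison that shares the depleted wild-type arrays.

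The counts varied with the arrays. They were 18 without wild-type replicate 1 (median 0.31), 24 without wild-type replicate 2, 38 without wild-type replicate 3 and 37 without overexpresser replicate 3 (median 0.51). Centring and scaling of the arrays gave 45. The array's 25S ribosomal RNA control was also higher in this comparison, at 11.04, 11.19 and 10.40 in the overexpresser and 8.30, 9.68 and 9.58 in wild type. A two-sided exact permutation test gave p = 0.1, below which groups of 3 cannot go. In replete wild type, where most plastid genes stood higher than in depleted wild type, the control read 8.42, 8.89 and 8.61. Its part in these rises was not tested. Most plastid transcripts and ribosomal RNA lack long poly(A) tails, and the labels do not say how the RNA was primed.

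Of the plastid ribosomal protein genes, 9 of 15 rose (60%), with a median of 0.65, beside 43.5% of all 69 plastid genes and 7.21% of all probe sets. Without wild-type replicate 1, 8 of the 15 rose. Medians of the functional groups changed order when a wild-type array was left out, so no order is given. The plastid gene with the largest rise was rpl16, a protein of the large ribosomal subunit, which read 9.91, 9.82 and 9.12 in the overexpresser and 7.94, 8.69 and 8.91 in wild type (2.15-fold higher, limma adjusted p = 0.001). All 3 overexpresser arrays were higher, though replicate 3 lay near the top wild-type array. rpl14, rpl22, rpl36 and rps2 rose by 0.90, 0.89, 0.85 and 0.82 on the log2 scale.

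Photosystem I genes (3 of 5 higher, median 0.56) included psaA, a core subunit, at 9.62, 9.62 and 9.32 in the overexpresser and 8.43, 8.13 and 9.00 in wild type (adjusted p = 0.000486). Photosystem II genes (7 of 15, median 0.50) included psbJ and psbF, small subunits that rose by 0.66 and 0.54. For psaA and psbJ no wild-type array reached the overexpresser range. Among ATP synthase genes 3 of 6 rose, among cytochrome b6f genes 1 of 6 and among RNA polymerase genes 1 of 4. These counts stand beside 43.5% higher among all plastid genes and 7.21% among all probe sets. Without wild-type replicate 1 they were 2 for photosystem I, 4 for photosystem II, 1 for ATP synthase, 0 for cytochrome b6f and 1 for RNA polymerase. None of the 10 NDH complex genes passed with all arrays (median 0.19). Without replicate 3, ndhK was higher (0.59, adjusted p = 0.00229) and no cytochrome b6f gene passed. rbcL, the large subunit of the carbon-fixing enzyme Rubisco, stood at −0.27 (adjusted p = 0.338) and the photosystem II core gene psbA at −0.03 (adjusted p = 0.926).

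None of the 3 measured photosynthesis genes of the nucleus passed with all arrays. The Rubisco activase gene RCA read 12.94, 13.32 and 12.75 in the overexpresser and 13.14, 13.17 and 13.14 in wild type, and LHCB4.2 and LHCB4.1, light-harvesting proteins, stood at −0.01 and 0.23. The groups overlapped at all 3. LHCB4.1 was higher without replicate 3 (0.30, adjusted p = 0.0424), and RCA was lower without overexpresser replicate 2 (−0.31). With all arrays no member passed among the measured genes for abscisic acid and cold (3), cytokinin (2), auxin (3) and glucosinolates (3). Without replicate 3 the cold-response gene COR15A (0.68, adjusted p = 0.00338) and BCAT4, of glucosinolate synthesis (0.43, adjusted p = 0.0292), were higher. The reference genes AT4G34270 and AT2G28390 stood at −0.11 and −0.08. In the remaining lists, HCT, of lignin synthesis, fell by 0.36. AT1G47400, of the iron-deficiency response, was 1.67-fold higher with all arrays (adjusted p = 0.0382) and not past the threshold without replicate 3 (adjusted p = 0.138). No iron gene was higher without overexpresser replicate 2, without any 1 wild-type array, after repeated quantile normalization or after centring with scaling. Without overexpresser replicate 1, and after centring alone, 1 was.

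**Figure D5:**
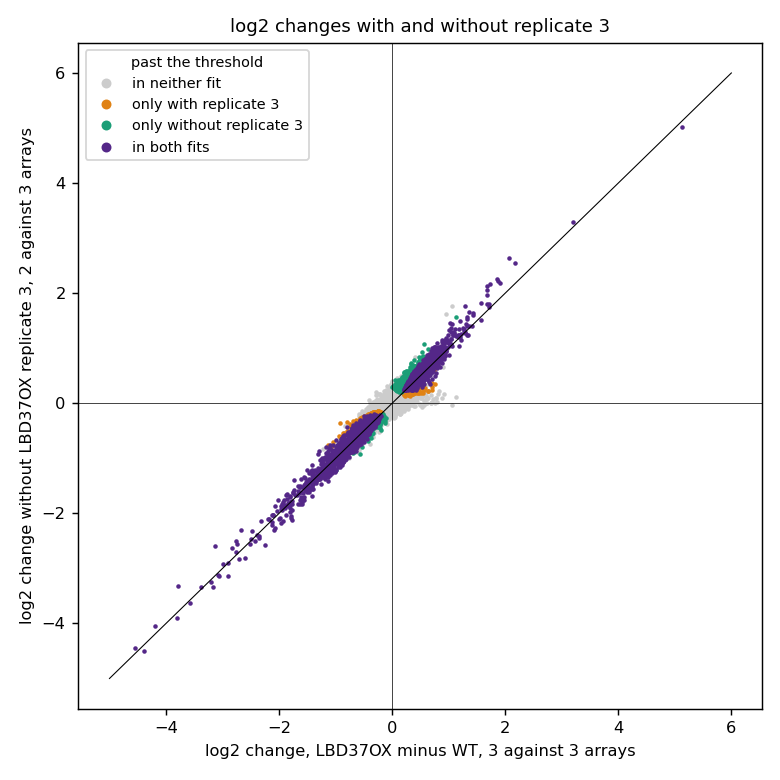
Log2 change of each probe set with all arrays (x axis) against the change without replicate 3 of the LBD37 overexpresser (y axis), coloured by whether the test was passed in both fits, only with replicate 3, only without it or in neither; the diagonal is the line of equality. Points called in both fits (1224 rises and 1806 falls) lie at the upper right and the lower left, as none changed direction.

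Replicate 3 affected rises and falls differently. Of the 15 largest rises, replicate 3 was the lowest overexpresser array in 12, and 14 had a larger change without it. Of the 15 largest falls it was the highest overexpresser array in 5, and 8 were larger without it. Over all 2-fold changes it was the overexpresser array closest to wild type in 44 of 61 rises and 113 of 324 falls. Calls lost when it was left out numbered 415 rises and 758 falls, and calls gained 749 rises and 96 falls. All 30 named genes passed in every alternative in which they were fitted. They were chosen as the largest changes past the threshold without overlap, so neither this nor their lack of overlap is independent support.

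The LBD38 overexpresser, grown in the same way, was set directly against the LBD37 overexpresser, and 11 probe sets (0.0484%) differed. LBD37 overexpression had the higher level at 2 and the lower at 9 of them, and 3151 had an unadjusted limma p under 0.05. AT3G03920, which encodes a GAR1-like protein of the particles that modify ribosomal RNA, read 11.88, 11.90 and 11.77 in the LBD37 overexpresser and 10.10, 10.13 and 10.19 in wild type, without overlap. The LBD38 overexpresser averaged 10.12 ± 0.16 (SD, n = 3), and the lines differed by 1.73 (limma adjusted p = 3.57e-09). AT2G44970 read 6.91, 6.64 and 6.41 in the LBD37 overexpresser and 8.64, 8.61 and 8.56 in wild type, and averaged 8.32 in the LBD38 overexpresser, a difference between the lines of −1.67 (adjusted p = 5.11e-09). AT2G33850, SCPL27 (a serine carboxypeptidase-like protein) and AT2G47010 were also lower with LBD37 than with LBD38 (log2 differences of −1.31, −0.60 and −0.69). Of the 30 named genes, AT3G03920 alone passed the test between the lines, and a p that misses the threshold does not show that the lines act alike.

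The lbd37 mutant, which carries an insertion in the gene, was grown with nitrogen and compared with its own wild-type arrays. It had 43 called probe sets (0.189%), 31 higher and 12 lower, with 1688 at an unadjusted p under 0.05 in limma. Of the 324 probe sets at least 2-fold lower in the overexpresser, 235 (72.5%) had a positive change in the mutant, with a median of 0.11 and 3 called, all higher. Of the 61 at least 2-fold higher in the overexpresser, 38 (62.3%) also had a positive change in the mutant, with a median of 0.09 and 1 called, higher. Of all 2564 probe sets called lower in the overexpresser 54.6% were positive in the mutant, and of all 1639 called higher 41.9%. Over all probe sets 41.5% were positive, with a median of −0.02. Across all probe sets the changes of overexpresser and mutant correlated at r = −0.128, a description over genes, which are not independent replicates.

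Of the 43 probe sets called in the mutant, 24 were also called in the overexpresser, where 18.5% of all probe sets were called (7.21% higher, 11.3% lower). Among these 24, 15 had opposite and 9 the same direction. AT1G70270 stood at −1.89 in the overexpresser and 0.65 in the mutant (adjusted p = 0.0303), and AT4G10270 at −1.23 and 1.41, each against its own wild type. STZ was higher in both, by 1.68 and 1.40 (adjusted p = 0.0381 in the mutant), and was the only one of the 30 named genes called in the mutant. Nitrogen supply differs between the experiments, and neither the number of shared calls nor their directions were tested against chance.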

How the data were processed

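Total RNA of whole seedlings was hybridized to 18 Affymetrix arrays, 3 in each of 6 groups. The values used are log2 signals, 1 per probe set and array, as deposited by the authors. Per the submitters' processing notes they used RMA, with a version that the sources used here do not give. One label describes liquid culture from the start, another growth on agar followed by transfer to liquid wells. The table holds 22810 probe sets, of which 64 controls were left out of the tests. The platform's gene table lists exactly 1 gene for 13513 probe sets, several for 503 and none for 8730. Of the first, 13436 matched TAIR10.1 names. A probe set without exactly 1 gene is called by its identifier, and no detection calls were used.

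Changes were fitted with limma 3.58.1 in R 4.3.3 (lmFit and eBayes without trend) with 1 mean for each of the 6 groups over all 18 arrays (12 residual and 5.89 prior degrees of freedom). Tests were two-sided, adjusted by Benjamini-Hochberg over 22746 probe sets, with a threshold of 0.05. Array measures were compared by exact permutation tests (scipy 1.17.1). On simulated data for this comparison the fit recovered 99 of 100 log2 changes of 1 and 100 of 100 of 2. It made 10 false calls among 22746. Whether these rates hold for the arrays themselves, where overexpresser replicate 3 had a narrower spread of values, was not tested.

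Genes were named by a rule: the 15 rises and 15 falls with the largest change among probe sets past the threshold, without overlap and with 1 listed gene; up to 6 members per list, or all where 8 or fewer were measured, plus members whose role is described; the 2 largest unnamed rises and falls; and the LBD genes. Members and lists were chosen with earlier results of these data known. Of 31 lists, 25 had a measured member. Symbol families and further single genes were added after values were seen, as were the genes called between lines or in both lines. Alternatives were a replicate block, other scalings, a filter on dim probe sets, other fits and leaving out each array.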

Additional observations from a re-analysis of the deposited data

Results flagged for a closer look

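Of the probe sets that also changed against wild type, 9 differed between the LBD37 and LBD38 overexpressers in a direct limma test. Both lines were compared with the same wild-type arrays, but the direct test does not use those arrays for its difference. As LBD37 minus LBD38 overexpresser on the log2 scale, AT3G03920 stood at 1.73, AT2G44970 at −1.67, AT2G33850 at −1.31, AT2G47010 at −0.69 and SCPL27 at −0.60. Among probe sets with no listed gene or several, 246996_at stood at 6.06, 252220_at at −6.81, 259346_at at −2.54 and 266795_at at −0.53. The probe set 252220_at averaged 12.99 in the LBD38 overexpresser and fell by 1.09 in the LBD37 overexpresser against wild type.

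The 25S ribosomal RNA control of the arrays, which is outside the comparison of transcripts, averaged 10.88 ± 0.42 in the LBD37 overexpresser and 9.19 ± 0.77 in wild type (SD, n = 3 each). The difference of 1.69 on the log2 scale had an exact two-sided permutation p of 0.1, below which groups of 3 cannot go. The signal at the 3' end minus that at the 5' end of GAPDH was 0.09 ± 0.06 in the overexpresser and −0.14 ± 0.08 in wild type (exact p = 0.1), and for actin 2.65 ± 0.09 and 2.80 ± 0.14 (exact p = 0.2).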

How the results depend on the processing

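Counts of calls moved by over 1.5 times in few settings. Fitting only the 6 arrays gave 2067 calls (693 higher, 1374 lower), and keeping only probe sets with 1 gene gave 2182 (877 higher, 1305 lower; 30 and 153 at least 2-fold), as fewer were tested. Centring with scaling raised the higher calls to 2527. Leaving out 1 array at a time gave 2736 to 4822 calls, 923 to 1973 higher and 1722 to 2915 lower, with 57 to 89 and 309 to 358 at least 2-fold. The lowest totals came without wild-type replicate 2 (2736) and wild-type replicate 1 (2742). With the replicate number as a block, 4421 passed (1740 higher, 2681 lower; 62 and 324 at least 2-fold). Deviations of same-numbered arrays correlated at 0.05, 0.09 and 0.19, not all over 0.1, so the numbers were not taken as pairs. Of the results for single named genes under all alternatives, 221 lost and 221 gained a call and none that was called changed sign. A further 253 were classed as moved and 5778 as the same. For list medians, 538 moved by less and 24 by more than the spread between replicates. Values near the lower quartile of the arrays (5.19 to 5.34) make folds of dim genes rough.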

Other observations

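Gene families grouped by the start of their symbol, chosen after the values were seen, held further changes between the LBD37 overexpresser and wild type without nitrogen. Expansins, which loosen cell walls, had 5 of 18 measured members higher and 2 lower. EXPA15 read 9.59, 9.53 and 9.27 in the overexpresser and 8.18, 8.18 and 8.63 in wild type, and EXPB3 read 8.88, 8.91 and 8.41 against 7.50, 7.62 and 7.85. Both were higher on every overexpresser array (2.2- and 2.12-fold), while the root hair expansins EXPA7 and EXPA18 were the members that fell. XTH32, a xyloglucan-modifying enzyme, was 2.02-fold higher. Of 14 SWEET sugar transporters 3 rose and 2 fell, with SWEET17 at 0.73, SWEET4 at −0.84 and SWEET13 at −2.11. Glutamate receptor-like channels had 3 of 8 members lower and none higher, led by ATGLR1.2, which read 5.50, 5.31 and 6.0 in the overexpresser and 7.50, 7.37 and 7.84 in wild type (3.92-fold lower).

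CYP71B cytochromes P450 changed in both directions, with 3 of 19 higher and 6 lower. CYP71B28 (−1.88) and CYP71B24 (−1.39) fell, and CYP71B22 (1.21) and CYP71B26 (0.92) rose. Of 47 glycosyltransferases with a UGT symbol 10 rose and 6 fell, and UGT73D1 was 3.14-fold lower. Serine carboxypeptidase-like genes had 6 of 29 members lower and none higher, and tau-class glutathione transferases 1 of 11 higher and 5 lower. Beside these counts, 7.21% of all probe sets were higher and 11.3% lower.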
